A study of Rattus norvegicus with 50 samples.

Results

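Livers of brain-injured rats that had received erythropoietin (EPO), taken 24 h after the injury, were compared with livers of intact sham rats. The comparison used 5 arrays labelled EPO at 24 h and 5 labelled SHAM, chosen by their titles, 10 of the 50 arrays of the series. All animals were male Sprague Dawley rats of about 3 months. The injured animals of this group had a controlled cortical impact (CCI), a mechanical contusion of the brain, and EPO at 2500 IU/kg. The sham animals were intact, and their labels give neither a drug, a vehicle nor a time. Injured animals given saline vehicle and injured animals given anakinra, which blocks the receptor of interleukin-1, at 100 mg/kg, 5 each and also at 24 h, and 5 EPO animals at 72 h served to place the results. RNA came from punches of the median liver lobe and was read on Affymetrix Rat Gene 1.0 ST arrays, with a separate array for each animal. By its title, the series asks what such treatment of injured rats does to drug-metabolising enzymes and transporters of the liver. Injury, EPO, saline, handling and time of collection cannot be told apart in EPO livers against sham livers. EPO against vehicle at 24 h is the comparison in which injured animals of the same time differ by label in the drug. The dosing schedule and the hour of collection are unknown here.

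EPO is the growth factor of red cell precursors. It binds its receptor on these cells and signals through JAK2 and STAT5. Red cell production draws on iron, and the liver hormone hepcidin, encoded by Hamp, sets how much iron enters the blood by closing the iron exporter ferroportin. Hepcidin transcription rises with BMP and SMAD signals and with interleukin-6 and STAT3, and falls when erythroid precursors expand and release erythroferrone. The liver also answers distant injury with the acute phase response, in which hepatocytes secrete more of the plasma proteins that bind endotoxin, metals and proteases.

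Promoters of some called genes that held searched letters are shown here for reading beside the values, as 250 bases upstream of the transcription start from RefSeq (build GRCr8). They are examples, and the promoters of the called acute phase genes C4bpa, Kng1 and Kng2 held none of the letters searched. Capitals mark the searched letters: in Hamp the sequence GGCGCC, the core of the BMP-responsive element, and a match to GAS (TTCNNNGAA), the letters bound by STAT factors, and in Itih4, an acute phase protein, a GAS match.
Hamp, chr1:95300272-95300521, minus strand: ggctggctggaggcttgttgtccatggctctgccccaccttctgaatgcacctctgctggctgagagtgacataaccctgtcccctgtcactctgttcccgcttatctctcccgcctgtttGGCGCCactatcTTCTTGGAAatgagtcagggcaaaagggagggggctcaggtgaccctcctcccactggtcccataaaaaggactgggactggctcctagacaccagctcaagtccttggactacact
Itih4, chr16:6086735-6086984, plus strand: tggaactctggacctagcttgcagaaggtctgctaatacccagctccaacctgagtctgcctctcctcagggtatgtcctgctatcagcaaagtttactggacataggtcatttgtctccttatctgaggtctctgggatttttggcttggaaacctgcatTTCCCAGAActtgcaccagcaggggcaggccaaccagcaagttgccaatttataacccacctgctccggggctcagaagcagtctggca
In Ccnb2, cyclin B2, and Ect2, the exchange factor that drives cytokinesis, capitals mark CCAAT and TTTGAA, the letters of the NF-Y box and of the cell cycle homology region (CHR) of mitotic genes. Other searched letters are left in lower case: GGCGCC in Ect2, 127 bases upstream, and CCAAT in Itih4, 45 bases upstream.
Ccnb2, chr8:79981659-79981908, minus strand: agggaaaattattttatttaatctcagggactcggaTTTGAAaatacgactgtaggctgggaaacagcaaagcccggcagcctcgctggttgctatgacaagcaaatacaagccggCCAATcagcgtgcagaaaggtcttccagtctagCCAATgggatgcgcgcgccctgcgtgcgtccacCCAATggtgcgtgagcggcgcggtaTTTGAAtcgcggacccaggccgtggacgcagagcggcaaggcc
Ect2, chr2:111966627-111966876, minus strand: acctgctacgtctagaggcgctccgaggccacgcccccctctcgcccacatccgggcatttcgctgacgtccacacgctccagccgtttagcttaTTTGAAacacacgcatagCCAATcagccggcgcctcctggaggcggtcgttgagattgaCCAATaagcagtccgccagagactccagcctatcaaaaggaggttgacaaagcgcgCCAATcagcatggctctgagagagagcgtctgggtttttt

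Array medians were 6.69 to 6.73 and standard deviations across probes 2.10 to 2.13 in the 10 arrays, on the log2 scale of robust multi-array averaging (RMA). The 5 arrays of the series with the smallest standard deviations (1.99 to 2.04) were not among them, but 1 was vehicle array 3 at 24 h, which enters EPO against vehicle. The tissue bore its label: the 12 measured hepatocyte markers had a mean value of 13.16 to 13.26 in the EPO arrays and of 13.16 to 13.26 in the sham arrays, and 0 of them passed (1 higher before adjustment). Markers of pancreas, muscle and adipose tissue had mean values of 6.48 to 6.56 and 6.48 to 6.61, with 0 of 22 called, also 0 before adjustment. In tissue RNA, fewer cells of a type and less RNA per cell cannot be told apart. Nothing in the labels says more of the replicates than that they are separate animals.

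Of 14506 genes tested, 63 (0.434%) were called, 41 higher (0.283%) and 22 lower (0.152%) in EPO livers than in sham livers, by limma at an adjusted p under 0.05. Among them, 19 were at least 1.5-fold higher and 11 at least 1.5-fold lower, 3 and 5 at least 2-fold. The changes ran from hepcidin, 3.72-fold lower, to Wfdc21, 2.97-fold higher. Every EPO array lay above every sham array in 35 of the 41 (1.66% of all genes tested) and below in 17 of the 22 (1.22%). The median difference over all genes was -0.01, and 6932 of the 14506 genes had a difference above 0. These shares over all genes are the background of the counts of gene list members given below. Members of a list may vary together over 5 arrays, and no list was tested as a set. Before adjustment, 493 genes were higher and 376 lower at p under 0.05. With each array centred and scaled, the calls numbered 19 higher and 18 lower.

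The size of this set depended on single arrays. It held 18 genes without EPO array 3, 20 without sham array 2, 24 without EPO array 5, 25 without sham array 3, 31 without sham array 5, and 41 each without EPO array 1 or sham array 4. Each of the 10 arrays was left out in turn, and the number of these 10 fits in which a gene kept its call is given below as, for example, 4 of 10. Of the 63 genes, 12 kept it in 10 of 10: Rrm2, Ccnd1, Adamts9, Adam23, Aldh1l2, Kng1, Csf2rb, Fgl1, Fgf23, Tacr1, Mmp8 and Derl3. A fit on the EPO and sham arrays alone called 163 genes, 48 of the 63 among them.

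**Figure D1:**
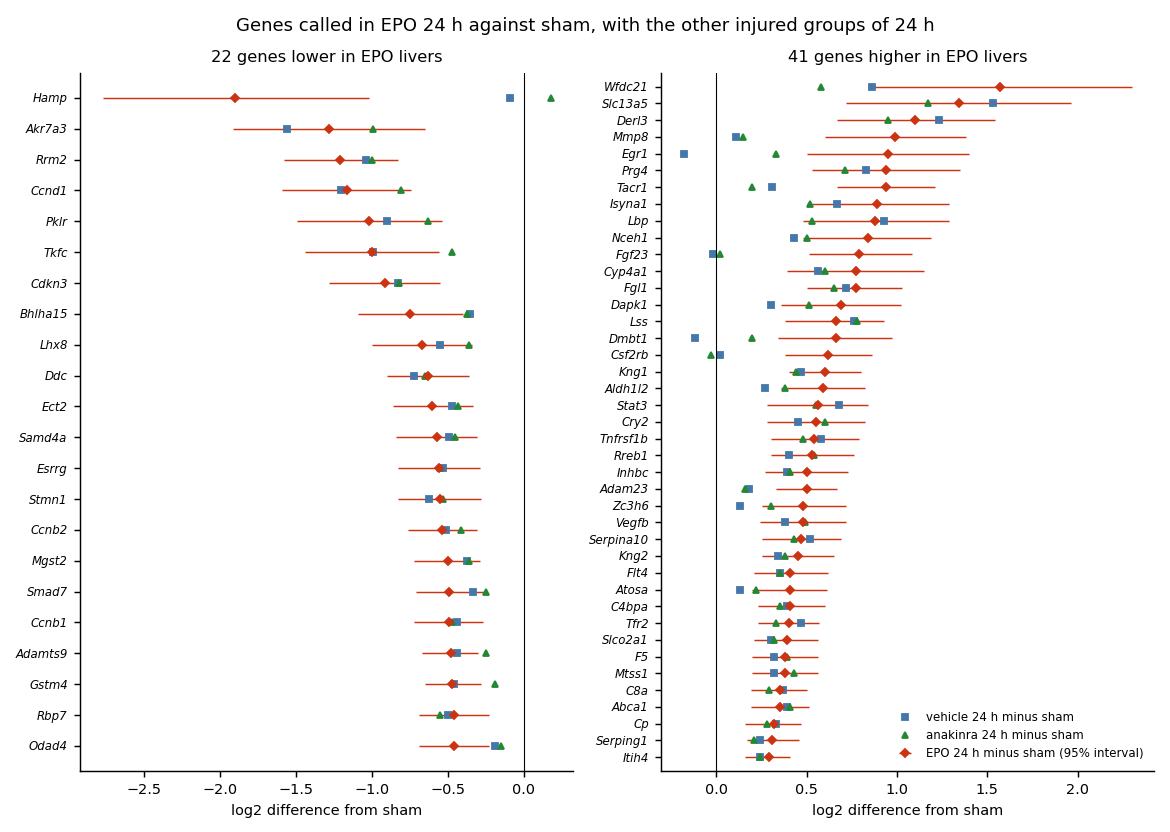
Log2 difference from sham of the 63 genes called in EPO livers at 24 h (red, with 95% intervals), with vehicle (blue) and anakinra (green) livers of 24 h against the same sham arrays. Hamp, Fgf23, Csf2rb, Egr1 and Dmbt1 have vehicle values within 0.18 of 0, while for Lbp, Fgl1, Ccnd1 and Rrm2 the vehicle value lies inside the EPO interval.

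Hamp was the gene with the largest difference among those called. Its log2 values in the sham arrays were 12.70, 12.94, 13.07, 12.77 and 13.03. In the EPO arrays they were 11.77, 10.56, 9.24, 11.89 and 11.58, all below every sham array and spread over a wider range (11.01 ± 1.12 against 12.90 ± 0.16, mean ± SD, n = 5). The difference was -1.90 (SE 0.44, 95% interval -2.77 to -1.02, limma adjusted p = 0.0279). The call held in 4 of 10: it was lost without EPO array 2 or 3 and without sham array 2, 3, 4 or 5, with differences from -2.12 to -1.45 and adjusted p up to 0.19. In the injured vehicle arrays Hamp read 13.02, 12.63, 13.09, 12.45 and 12.87, and in the anakinra arrays 13.08, 13.04, 12.98, 13.12 and 13.17. Both of these groups overlapped the sham arrays and neither overlapped the EPO arrays. EPO minus vehicle was -1.80 (-2.68 to -0.93) and EPO minus anakinra -2.07 (SE 0.44), and neither passed over all genes (adjusted p = 0.189 and 0.0708). In EPO livers at 72 h Hamp read 7.60, 8.92, 7.07, 8.32 and 9.16, a further difference of -2.79 from 24 h (adjusted p = 2.48e-05), and at 7 days the arrays lay between 7.08 and 7.54.

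A small group of genes was higher in EPO livers than in other injured livers of the same time. Of the 14506 genes, 4 (0.0276%) were called higher than in vehicle livers at 24 h and 0 lower: Fgf23, Csf2rb, Egr1 and Dmbt1. Against anakinra livers 3 (0.0207%) were called higher and 0 lower: Tacr1, Csf2rb and Fgf23. At an unadjusted p under 0.05 there were 1572 and 245 genes. All of these comparisons share the EPO arrays.

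Fgf23 encodes the hormone that makes the kidney excrete phosphate and that EPO is known to raise in bone marrow. Its values were 5.13, 5.37, 5.02, 5.12 and 5.42 in sham livers and 5.97, 5.65, 6.12, 6.05 and 6.24 in EPO livers, which did not overlap. They differed by 0.79 (SE 0.14, adjusted p = 0.00301, 10 of 10). Vehicle arrays read 4.86 to 5.34 and anakinra arrays 4.82 to 5.36, within or below the range of sham. EPO minus vehicle was 0.81 (adjusted p = 0.0117) and EPO minus anakinra 0.77 (adjusted p = 0.00978). The gene's mean over all arrays was under the lower quartile of gene means, 6.03, and the values come without detection calls.

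Csf2rb encodes the beta chain shared by the receptors of interleukin-3, interleukin-5 and GM-CSF, which has also been described as a partner of the EPO receptor. It read 7.43, 7.38, 7.39, 7.21 and 7.39 in sham livers and 8.28, 7.81, 7.78, 8.05 and 7.98 in EPO livers. The groups did not overlap, and the difference was 0.62 (SE 0.12, adjusted p = 0.00599, 10 of 10). Against vehicle it was 0.60 (adjusted p = 0.0285) and EPO minus anakinra 0.65 (adjusted p = 0.00978). At 72 h it was higher again by 0.83 (adjusted p = 4.58e-06), with EPO arrays from 8.47 to 9.28.

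Tacr1, the neurokinin receptor of substance P, had the smallest p of all genes in EPO against sham. It read 6.75, 6.59, 6.60, 6.29 and 6.56 in sham livers and 7.53, 7.29, 7.43, 7.65 and 7.57 in EPO livers, 1.92-fold higher with no overlap (0.94, SE 0.13, adjusted p = 0.000116, 10 of 10). The vehicle arrays, from 6.67 to 7.03, overlapped the sham arrays and lay below every EPO array, and EPO minus vehicle was 0.63 (0.36 to 0.90, adjusted p = 0.065). EPO minus anakinra was 0.73 (adjusted p = 0.00978).

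Egr1, an immediate early transcription factor that growth factor receptors induce, read 7.97, 8.04, 8.12, 8.17 and 9.0 in sham livers and 9.99, 8.76, 9.52, 8.87 and 8.91 in EPO livers. Sham array 5 stood above the other sham arrays and overlapped the EPO arrays, of which 2 lay above all sham arrays. The difference was 0.95 (SE 0.22, adjusted p = 0.0311, 4 of 10). Against vehicle livers the difference was 1.13 (adjusted p = 0.0285), with 5 of 5 EPO arrays above every vehicle array. Dmbt1, a secreted scavenger receptor of epithelia that is counted among cholangiocyte markers, read 6.47 to 7.38 in sham livers and 7.48, 7.65, 7.56, 7.64 and 7.52 in EPO livers. It was higher by 0.66 than in sham (SE 0.16, adjusted p = 0.0331, 2 of 10) and by 0.78 than in vehicle livers (adjusted p = 0.0285). The other 11 measured cholangiocyte markers were not called. Of all 12, Dmbt1 included, 3 had a difference above 0 and 9 below, with a median of -0.03, and 2 were lower before adjustment.

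The calls against other injured livers also rested on single arrays. When each of the 10 arrays was left out in turn, Fgf23 kept its call against vehicle in 8 fits, Egr1 and Csf2rb in 3 each and Dmbt1 in 2. Without vehicle array 3, the array with the narrow spread, Egr1 differed by 1.19 (adjusted p = 0.0587), Csf2rb by 0.56 (0.233) and Dmbt1 by 0.69 (0.288), while Fgf23 was still called. There was also 1 call without EPO array 1 or vehicle array 4, there were 2 without EPO array 3 or 4, and 0 without EPO array 5 or vehicle array 5. A fit on EPO and vehicle arrays alone called 0 genes by limma, with adjusted p = 0.0529 for Fgf23. Against anakinra, Tacr1 and Csf2rb kept their calls in 7 fits each and Fgf23 in 6, and 0 genes were called without EPO array 1 or EPO array 5. The direction was the same in all of these fits.

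Mmp8, the collagenase of neutrophil granules, read 5.72, 5.89, 5.55, 5.61 and 5.94 in sham livers and 6.57, 6.95, 6.80, 6.60 and 6.76 in EPO livers. It was 1.99-fold higher with no overlap (0.99, SE 0.20, adjusted p = 0.00803, 10 of 10), and EPO minus vehicle was 0.88 (0.49 to 1.27, adjusted p = 0.0904). Of the 21 measured neutrophil markers Mmp8 was called, and 5 were higher at an unadjusted p under 0.05. The mean over the list was 6.06 to 6.25 in EPO arrays and 5.85 to 5.95 in sham arrays. The median difference was 0.04, with 15 members above 0 and 6 below, and the largest was 1.66 for Lcn2, which is also given below among acute phase proteins. S100a9 differed by 0.58 (SE 0.19, adjusted p = 0.248) and Ngp, neutrophilic granule protein, by 0.63 (SE 0.20, adjusted p = 0.215), each with 5 of 5 EPO arrays above sham, while S100a8 read 3.82 to 4.11 in EPO and 3.68 to 3.95 in sham arrays. The part of these cells in the Mmp8 result was not tested. At 72 h Mmp8 was higher again by 1.40 (adjusted p = 3.47e-06).

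**Figure D2:**
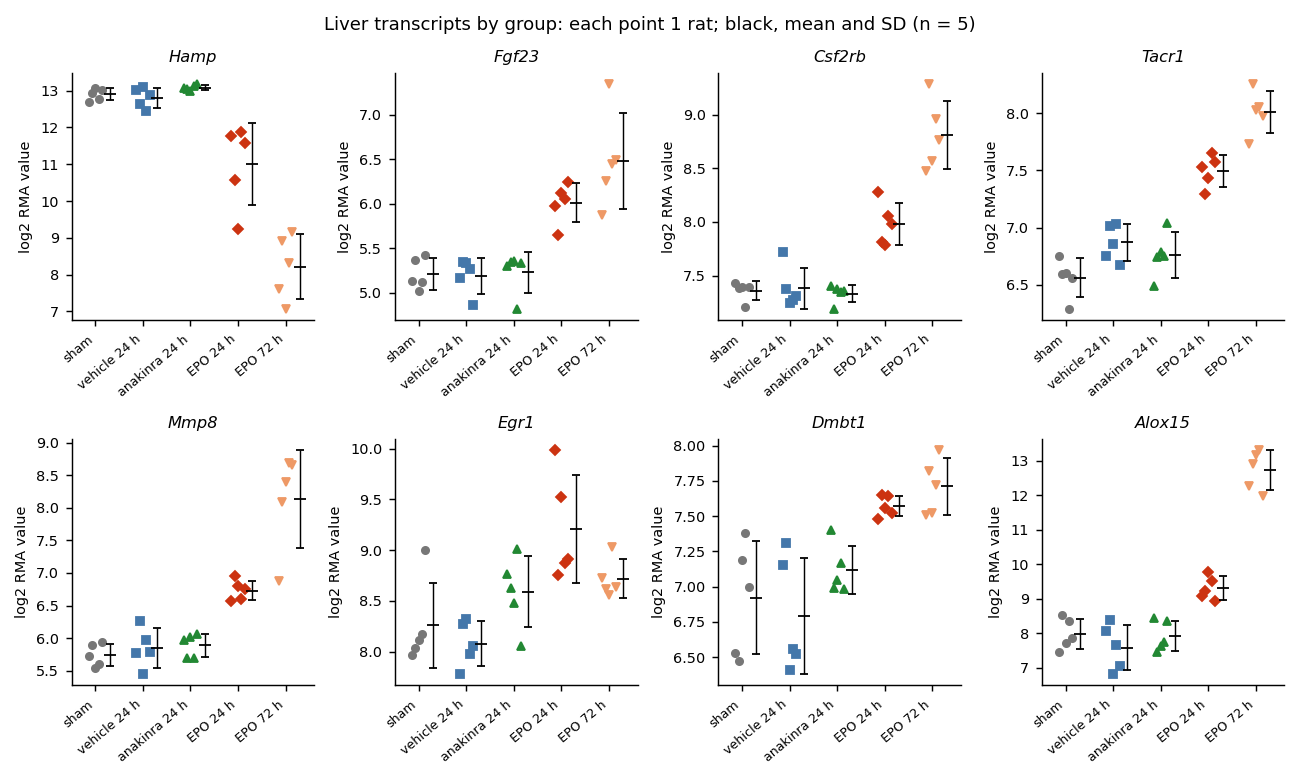
Log2 RMA values of 8 genes in each rat of 5 groups, with the mean and SD in black. Hamp lies near 13 in sham, vehicle and anakinra livers and at 9.24 to 11.89 in EPO livers of 24 h, and for Fgf23, Csf2rb, Tacr1 and Mmp8 all EPO arrays of 24 h lie above all sham, vehicle and anakinra arrays.

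The iron list of 40 measured genes held 2 called higher and 2 lower, Hamp among the latter, with a median of 0.02. Tfr2, the second transferrin receptor, which senses iron on hepatocytes, read 10.96 to 11.34 in sham and 11.44 to 11.74 in EPO livers and rose by 0.40 (SE 0.09, adjusted p = 0.0164, 6 of 10). Cp, ceruloplasmin, the copper protein that oxidises iron for loading onto transferrin, rose by 0.32 (adjusted p = 0.0429, 0 of 10). Smad7, the inhibitory SMAD that opposes BMP signals, fell by 0.49 (SE 0.11, adjusted p = 0.0271, 3 of 10), with 3 of 5 EPO arrays below every sham array. Vehicle minus sham was 0.33 for Cp and -0.33 for Smad7. EPO minus vehicle was -0.02 for Cp (-0.17 to 0.14) and -0.16 for Smad7 (-0.39 to 0.06). The other measured genes of this list were not called. Stat3, which stands in the acute phase list, was called higher and is given below. Id1, a target gene of BMP signals, differed by -0.09 (-0.24 to 0.07), Atoh8 by 0.03 (-0.21 to 0.27), Smad6 by 0.08 (-0.15 to 0.31), Bmp6 by -0.09 (-0.34 to 0.17) and Tmprss6, the protease that trims the BMP co-receptor, by -0.03 (-0.23 to 0.17). Hjv, that co-receptor, differed by 0.46 (0.13 to 0.78, adjusted p = 0.352) and Tfrc, transferrin receptor 1, by 0.13 (-0.31 to 0.57). Slc40a1, ferroportin, differed by 0.16 (-0.08 to 0.39).

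In the Hamp promoter printed above, GGCGCC started 129 bases and the GAS match 117 bases upstream of the start. GAS letters stood in 7.7% and GGCGCC in 8.7% of 33469 RefSeq promoters of the same length, both strands counted. Of the 10 called acute phase genes, 7 had a promoter in the table, and Hamp and Itih4 held a GAS match. The search for GGCGCC was added after values were seen, as were those for the CCAAT box and the CHR. A match is a description of the letters.

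Red cell transcripts, the usual targets of EPO, were not called at 24 h. Of 34 measured erythroid and blood genes 0 passed, the median was -0.05, and an unadjusted p under 0.05 was found for 2 higher and 1 lower member. Alox15, the lipoxygenase of maturing red cells, read 7.46, 8.51, 7.72, 8.35 and 7.87 in sham livers and 9.08, 9.23, 9.78, 9.52 and 8.93 in EPO livers. Its groups did not overlap, and the difference was 1.33 (0.23 to 2.43, adjusted p = 0.575). Slc4a1, the anion exchanger of the red cell membrane, also had no overlap, with 6.97 to 7.66 against 7.95 to 8.65 (0.79, adjusted p = 0.83). A fit on these 10 arrays alone, without the spread of the other groups, called both (adjusted p = 0.00684 and 0.028), and over all alternatives their adjusted p ran up to 0.864 and 1. Ahsp, the chaperone of alpha globin, differed by 0.76 (-0.39 to 1.90), Alas2, the erythroid enzyme of haem synthesis, by -0.31 (-1.25 to 0.64), and Rhag, of the Rh complex, by 0.11 (-0.24 to 0.46). Against vehicle livers of 24 h, EPO livers differed by 1.72 for Alox15 (0.62 to 2.82), 1.54 for Ahsp (0.40 to 2.68) and 1.00 for Slc4a1 (0.22 to 1.79). None of these passed (limma adjusted p = 0.442 for each), and vehicle array 3, of narrow spread, was the lowest in Ahsp at 3.95. Alas2 and Rhag differed from vehicle by -0.06 and -0.05. Car1, a carbonic anhydrase of red cells, read 7.93 to 8.28 in sham and 6.44 to 7.75 in EPO livers (-0.83, adjusted p = 0.124). Between 24 h and 72 h 25 of the 34 were called higher (1.76% of all genes) with a median of 1.17, among them Alox15 by 3.42, Ahsp by 3.53 and Rhag by 2.14.

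Of 23 measured genes of EPO receptor signalling and STAT5 feedback, Fgf23, Csf2rb and Egr1 were called. Epor itself, the EPO receptor, read 7.28 to 7.46 in sham and 7.17 to 7.34 in EPO livers (-0.09, -0.24 to 0.07). Cish, a STAT5-induced feedback inhibitor, ran from 7.10 to 9.95 in sham and from 8.15 to 9.81 in EPO livers, so the groups overlapped throughout (1.03, -0.23 to 2.28). Socs2 differed by -0.03 (-0.93 to 0.87). Socs3, the inhibitor of STAT3 signals, read 6.95 to 7.59 in sham and 7.63 to 8.66 in EPO livers and missed the threshold (0.83, SE 0.21, adjusted p = 0.0604). It passed with array weights (0.00078) and with the groups compared alone (0.0429). Vehicle and anakinra livers differed from the same sham arrays by 0.76 and 0.94 in Socs3.

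Of the 39 gene lists, positive acute phase proteins held the most called members. Of 40 measured, 9 rose and 1, Hamp, fell, and the median over the list was 0.26. Over all genes tested, 0.283% were called higher and 0.152% lower. The mean over the list lay between 11.42 and 11.69 in EPO arrays and between 11.13 and 11.31 in sham arrays. Lbp, which carries bacterial lipopolysaccharide to CD14, read 11.47, 11.42, 11.43, 11.70 and 11.57 in sham livers and 12.12, 12.23, 12.54, 12.19 and 12.93 in EPO livers. It was 1.84-fold higher, with no overlap (0.88, SE 0.20, adjusted p = 0.0271, 4 of 10). Fgl1, a fibrinogen-like protein of hepatocytes, read 11.87 to 12.54 in sham and 12.74 to 13.06 in EPO livers and rose by 0.77 (SE 0.13, adjusted p = 0.00194, 10 of 10). Kng1, kininogen, the precursor of bradykinin, rose by 0.60 (SE 0.10, adjusted p = 0.00132, 10 of 10), and its close relative Kng2, whose probe may read part of the same RNA, by 0.45 (adjusted p = 0.0218, 5 of 10).

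Stat3, which carries the interleukin-6 signal, rose by 0.56 (adjusted p = 0.0494, 0 of 10). C4bpa, the inhibitor of complement C4b, rose by 0.41 (adjusted p = 0.0205, 5 of 10), Serping1, the C1 inhibitor, by 0.31 (adjusted p = 0.0246, 3 of 10) and Itih4 by 0.29 (adjusted p = 0.0193, 7 of 10). All of these had 5 of 5 EPO arrays above every sham array. Haptoglobin, Hp, missed the threshold with EPO arrays of 13.27 to 13.42, all above the highest sham array at 13.22 (0.25, adjusted p = 0.0604). A2m and Lcn2, major rat acute phase proteins, varied most: A2m read 8.66, 11.44, 9.90, 8.90 and 12.99 in the EPO arrays against 8.25 to 8.74 in sham (1.90, SE 0.52, adjusted p = 0.0953), and Lcn2 read 7.92, 8.96, 8.83, 8.21 and 11.78 against 7.10 to 7.68 (1.66, SE 0.55, adjusted p = 0.273). EPO array 5 was the highest in both. Orm1 differed by 0.56 (0.17 to 0.95) and Crp by 0.06 (-0.05 to 0.16). The number of called members was 2 without sham array 2 or sham array 3, 3 without EPO array 3 or EPO array 5, 5 without EPO array 2 or sham array 4 and 6 without sham array 5, 3 with the arrays centred and scaled, and 24 with array weights.

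Of 34 measured coagulation and complement genes 3 rose and 30 had a difference above 0, with a median of 0.12. Besides Kng1 these were F5, coagulation factor V (0.38, adjusted p = 0.0331, 4 of 10), and C8a, a chain of the membrane attack complex (0.35, adjusted p = 0.0271, 3 of 10). Serpina10, an inhibitor of coagulation factor X, rose by 0.47 (adjusted p = 0.0331, 3 of 10). Of 16 negative acute phase proteins, which an acute phase is known to lower, 0 were called, also 0 at an unadjusted p under 0.05, and the median was 0.01. Tnfrsf1b, a receptor of TNF, read 9.52 to 9.70 in sham and 10.06 to 10.27 in EPO livers and rose by 0.54 (SE 0.12, adjusted p = 0.0208, 7 of 10), the 1 called gene of 39 that belong to the IL-1 and NF-kB pathway. Il1r1, the interleukin-1 receptor, read 8.58 to 8.75 in sham and 8.83 to 9.37 in EPO livers (0.49, adjusted p = 0.25), and it passed with array weights (0.0132) and with the groups compared alone (0.0183). Interferon response genes had 0 of 37 called (4 higher and 2 lower before adjustment), with 31 of 37 above 0 and a median of 0.16. Of all genes tested, 6932 of 14506 were above 0.

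The acute phase genes with the smallest p that rose, Kng1 and Fgl1, and Lbp and Stat3 were set beside the other injured livers. Vehicle minus sham, which shares the sham arrays, was 0.93 for Lbp, 0.72 for Fgl1, 0.47 for Kng1 and 0.68 for Stat3, and anakinra minus sham was 0.53, 0.65, 0.44 and 0.55. EPO minus vehicle was -0.05 for Lbp (-0.45 to 0.36), 0.05 for Fgl1 (-0.22 to 0.31), 0.13 for Kng1 (-0.08 to 0.33) and -0.12 for Stat3 (-0.40 to 0.16). The widest of these intervals, that of Lbp, reached -0.45. Other members of the list differed more from vehicle without passing, Hamp as given above and A2m by 1.11 (adjusted p = 0.456).

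Of 45 measured genes of S phase and mitosis 5 fell and 0 rose, 4 had a difference above 0, and the median was -0.17. Over all genes tested, 0.152% were called lower and 0.283% higher, and 6932 of 14506 had a difference above 0. Rrm2, the inducible subunit of ribonucleotide reductase, which supplies deoxynucleotides in S phase, read 6.31, 6.45, 6.99, 6.88 and 7.72 in sham livers and 5.60, 5.53, 5.60, 5.85 and 5.74 in EPO livers. It was 2.31-fold lower with no overlap (-1.21, SE 0.19, adjusted p = 0.000387, 10 of 10). Ccnd1, cyclin D1, which starts the cycle from G1, read 9.22, 9.40, 9.75, 10.03 and 10.07 in sham and 8.42, 8.21, 8.70, 8.83 and 8.49 in EPO livers, 2.24-fold lower with no overlap (-1.16, SE 0.21, adjusted p = 0.00349, 10 of 10). It was the 1 called gene of 22 G1 cyclins and inhibitors.

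The other called genes of the list were Cdkn3, Ccnb2, Ccnb1 and Stmn1. Cdkn3, a phosphatase of cyclin-dependent kinases, fell by 0.91 (SE 0.18, adjusted p = 0.00803, 9 of 10). Ccnb2 fell by 0.54 (adjusted p = 0.0154, 8 of 10), Ccnb1, cyclin B1, by 0.49 (adjusted p = 0.0251, 5 of 10) and Stmn1, stathmin, which takes microtubules apart, by 0.55 (adjusted p = 0.044, 2 of 10). Ect2, in none of the lists, fell by 0.60 (adjusted p = 0.0205, 4 of 10), with 4 of 5 EPO arrays below every sham array. Cdkn3, Ccnb1 and Ect2 had means over all arrays under the lower quartile of gene means. Sham array 5 held the highest value of the group in Rrm2, Ccnd1, Cdkn3, Ccnb1, Ccnb2 and Stmn1, and without it 1 of the 45 genes was called, Rrm2. Counts of 3 were reached without EPO array 2, 3 or 5 and without sham array 3 or 4. Plk1 (-0.44, adjusted p = 0.0573), Ccna2 (-0.42, 0.069) and Top2a (-0.62, 0.0965) missed the threshold.

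Of the 6 called genes of division that were searched (the 5 of the list and Ect2), 5 had a RefSeq promoter. All 5 held CCAAT, which stood in 34.0% of all promoters, and Ccnb2, Ect2 and Cdkn3 held TTTGAA, which stood in 16.2%. CCAAT also stood in 3 of the 7 promoters of called acute phase genes and in those of Lss and Cry2. Ccnb2 and Ect2, printed above, held 3 CCAAT boxes each. Vehicle minus sham was -1.04 for Rrm2, -1.20 for Ccnd1 and -0.83 for Cdkn3, and EPO minus vehicle was -0.16 (-0.54 to 0.21), 0.04 (-0.39 to 0.47) and -0.09 (-0.45 to 0.28). At 72 h in EPO livers 19 of the 45 were called higher than at 24 h, against 1.76% of all genes. Rrm2 was higher by 1.81 (adjusted p = 6.53e-09), Cdkn3 by 1.02 and Ect2 by 0.74, while Ccnd1 differed by -0.37 (adjusted p = 0.699). This comparison shares the EPO arrays of 24 h with EPO against sham. EPO arrays of 72 h read 6.83 to 7.90 in Rrm2.

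**Figure D3:**
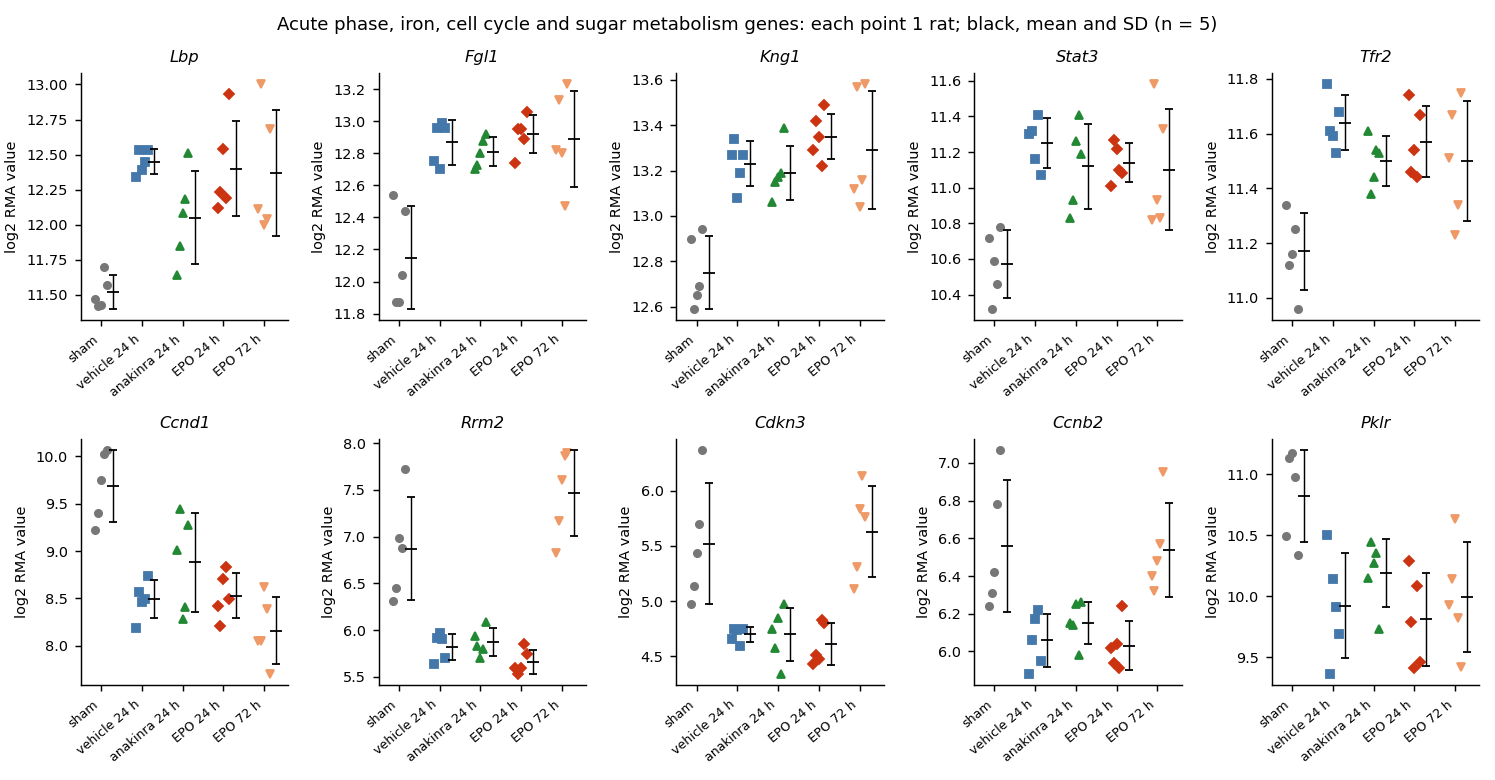
Log2 RMA values of 10 acute phase, iron, cell cycle and sugar metabolism genes in each rat of 5 groups, with the mean and SD in black. Lbp, Fgl1, Kng1 and Stat3 are higher and Ccnd1, Rrm2, Cdkn3 and Ccnb2 lower in EPO livers of 24 h than in sham, and the vehicle and anakinra livers of 24 h overlap the EPO livers of 24 h in these 8 genes.

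Sugar and fat metabolism changed in single enzymes. Pklr, the liver pyruvate kinase that ends glycolysis, read 10.34 to 11.17 in sham and 9.41 to 10.29 in EPO livers and was 2.02-fold lower (-1.02, SE 0.24, adjusted p = 0.0297, 4 of 10). Tkfc, triokinase of fructose breakdown, fell by 1.00 (SE 0.22, adjusted p = 0.0205, 6 of 10). Slc13a5, which carries citrate from the blood into hepatocytes, read 7.47 to 8.38 in sham and 8.84 to 9.83 in EPO livers and was 2.53-fold higher (1.34, SE 0.31, adjusted p = 0.028, 3 of 10). Cyp4a1, a fatty acid hydroxylase induced by PPAR alpha, rose by 0.77 (SE 0.19, adjusted p = 0.045, 2 of 10). Scd, the stearoyl-CoA desaturase, read 11.86, 12.57, 12.95, 11.68 and 11.70 in sham and 11.57, 11.98, 8.63, 10.54 and 9.87 in EPO livers. The EPO arrays were spread over a wide range, and the difference did not pass (-1.63, SE 0.57, adjusted p = 0.333) except with array weights (-1.95, adjusted p = 0.0123). In all, Pklr and Slc13a5 were the called genes of 23 in glucose production and glycolysis, Pklr that of 23 in fatty acid and triglyceride synthesis and Cyp4a1 that of 25 in fatty acid oxidation and ketogenesis. Vehicle minus sham was -0.90 for Pklr, 1.53 for Slc13a5 and 0.56 for Cyp4a1. EPO minus vehicle was -0.11 (-0.59 to 0.36), -0.19 (-0.81 to 0.43) and 0.21 (-0.17 to 0.59).

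Cholesterol synthesis genes had a median of 0.29, the highest of the 39 lists, with 20 of 23 above 0, 12 higher at an unadjusted p under 0.05 and 1 called. This was Lss, lanosterol synthase, which read 9.17 to 9.50 in sham and 9.72 to 10.45 in EPO livers (0.66, SE 0.14, adjusted p = 0.0146, 8 of 10). Sqle, squalene epoxidase, read 7.99 to 8.69 against 8.85 to 9.37 with no overlap and did not pass (0.86, SE 0.25, adjusted p = 0.132). It passed with array weights (0.000529), with the groups compared alone (0.00877) and with the spread taken without the narrow arrays (0.0258). Idi1, of isoprenoid synthesis, differed by 0.89 (adjusted p = 0.141), Cyp51 by 0.62 (0.178) and Hsd17b7 by 0.62 (0.0724), each with 5 of 5 EPO arrays above sham. The Lss promoter held no match to TCACNCCAC, the letters of a sterol element that stood in 1.0% of promoters. For EPO minus vehicle, the difference was -0.10 for Lss (-0.38 to 0.17) and -0.27 for Sqle (-0.78 to 0.23). Abca1, which exports cholesterol to form HDL, rose by 0.35 (SE 0.08, adjusted p = 0.0283, 5 of 10), and Nceh1, which releases cholesterol from its esters, by 0.84 (SE 0.18, adjusted p = 0.0164, 7 of 10).

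**Figure D4:**
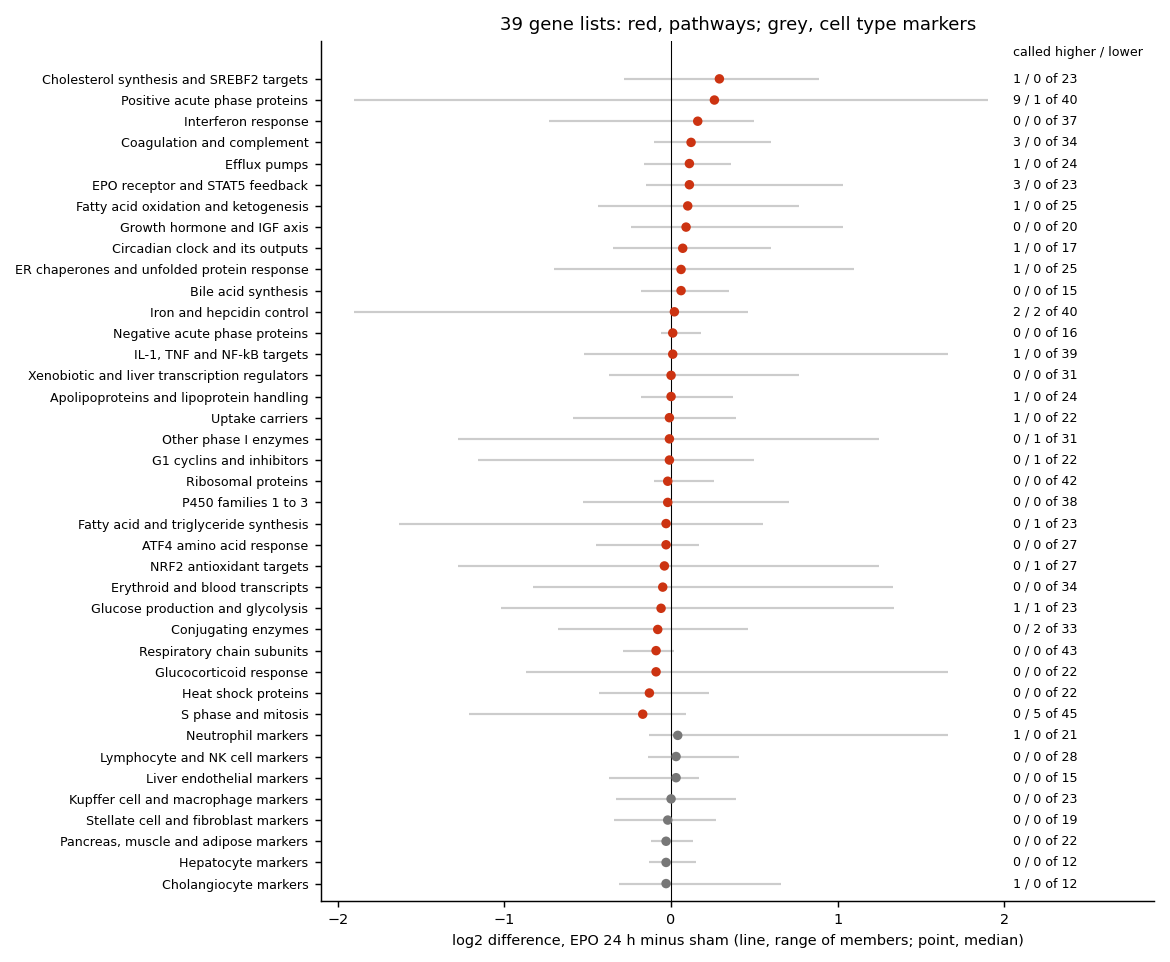
Median (point) and range (line) of the log2 difference of EPO at 24 h minus sham over the measured members of 39 gene lists, with the number of members called higher and lower. Medians lie between -0.17 (S phase and mitosis) and 0.29 (cholesterol synthesis), against -0.01 for all genes.

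The drug-metabolising P450 enzymes, the subject of the series, were not called. Of 38 measured members of P450 families 1 to 3, 0 passed, an unadjusted p under 0.05 was found for 2 higher and 3 lower members, and the median was -0.02. Cyp2c11, the male-specific P450 of rat liver, read 13.19 to 13.31 in sham and 13.09 to 13.24 in EPO livers (-0.07, -0.19 to 0.04). Cyp2e1, which oxidises ethanol and paracetamol, differed by 0.04 (-0.12 to 0.20), Cyp3a2 by 0.02 (-0.13 to 0.18) and Cyp1a2, which oxidises caffeine, by 0.08 (-0.07 to 0.24). These intervals keep the difference in array value of each of the 4 within 0.24. Their sham means, 12.30 to 13.28, were about as high as those of the hepatocyte markers. Whether array values this high follow the amount of RNA in proportion was not tested. Intervals were wider for Cyp3a23-3a1 (-0.46 to 0.13), Cyp2b1 (-0.77 to 0.99) and Cyp7a1, which starts bile acid synthesis (-0.97 to 0.63). The extremes of the list were Cyp2c12, the female-biased P450, at 0.71 (9.52 to 10.05 against 10.17 to 10.86, adjusted p = 0.324) and Cyp2d4 at -0.53 (adjusted p = 0.291). Probes of such gene families may read more than 1 member.

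Other drug enzymes fell in 3 cases. Akr7a3, the aldo-keto reductase that clears aflatoxin aldehyde, had means of 10.85 ± 0.38 (SD, n = 5) in sham and 9.57 ± 0.45 in EPO livers with no overlap and was 2.43-fold lower (-1.28, SE 0.31, adjusted p = 0.0434, 1 of 10). It was the called gene of 31 other phase I enzymes and of 27 NRF2 targets. Of 33 conjugating enzymes Mgst2, a microsomal glutathione transferase (-0.50, SE 0.11, adjusted p = 0.0164, 7 of 10), and Gstm4, a cytosolic one (-0.47, SE 0.09, adjusted p = 0.00807, 9 of 10), fell, 25 of the 33 were below 0, and the median was -0.08. Gstm1 (-0.27, adjusted p = 0.053) and Gsta3 (-0.68, adjusted p = 0.0626) missed the threshold. Nqo1, the quinone reductase that NRF2 induces, had no overlap in the other direction, with 7.86 to 8.65 in sham and 9.09 to 9.62 in EPO livers (1.25, SE 0.32, adjusted p = 0.0632). For Akr7a3, Gstm4 and Mgst2, vehicle minus sham was -1.56, -0.46 and -0.37, and anakinra minus sham -0.99, -0.19 and -0.36. EPO minus vehicle was 0.28 (-0.35 to 0.91), -0.01 (-0.20 to 0.18) and -0.13 (-0.35 to 0.08).

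Transporters were largely uncalled as well. Of 22 uptake carriers Slco2a1, the prostaglandin carrier, rose (12.07 to 12.21 against 12.49 to 12.62, 0.39, SE 0.09, adjusted p = 0.0248, 4 of 10), and of 24 efflux pumps Abca1 did. Vehicle minus sham was 0.30 for Slco2a1 and 0.39 for Abca1, and EPO minus vehicle 0.09 (-0.09 to 0.26) and -0.04 (-0.20 to 0.12). Slc10a1, the bile acid uptake carrier, differed by 0.00 (-0.11 to 0.11), Slco1b2, a carrier of organic anions, by 0.09 (-0.09 to 0.26), Abcb11, the bile salt pump, by -0.05 (-0.22 to 0.12) and Abcc2, the bilirubin conjugate pump, by -0.16 (-0.38 to 0.05). The sham mean of Slc10a1 was 13.13, so the limit given above for P450 enzymes of high value applies to it too. Abcb1a and Abcb1b, the multidrug pumps, differed by 0.18 (-0.19 to 0.54) and -0.06 (-0.35 to 0.22), Abcc3 by 0.00 (-0.17 to 0.18) and Abcg2 by 0.20 (-0.25 to 0.64). Slco1a4, another carrier of organic anions, read 10.98 to 11.45 in sham and 10.53 to 10.78 in EPO livers with no overlap (-0.59, -1.04 to -0.15, adjusted p = 0.421), and passed with the groups compared alone (adjusted p = 0.00684). Of 31 xenobiotic and liver transcription regulators 0 were called and 7 were higher before adjustment. Nr1i2, the pregnane X receptor, differed by 0.28 (adjusted p = 0.84), Nr1i3, the constitutive androstane receptor, by -0.13 (-0.59 to 0.33) and Nr1h4, the bile acid receptor, by -0.09 (-0.29 to 0.11).

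**Figure D5:**
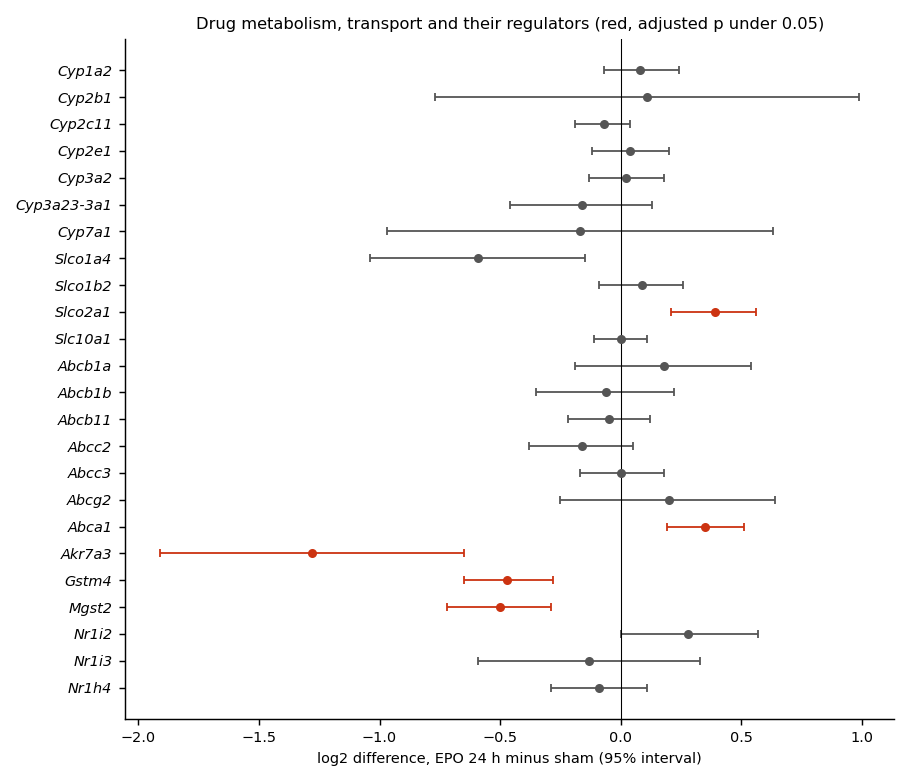
Log2 difference of EPO at 24 h minus sham with its 95% interval for 24 genes of drug metabolism, transport and their regulation, with called genes in red. Slco2a1 and Abca1 lie above 0, Akr7a3, Gstm4 and Mgst2 below 0, and the P450 enzymes shown have intervals that include 0.

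Of 17 clock genes Cry2, a repressor of the clock, was called (7.63 to 8.30 against 8.45 to 8.77, 0.55, SE 0.14, adjusted p = 0.0463, 1 of 10). Dbp and Per3, which cycle with the clock, differed by 0.60 and 0.44 with no overlap (adjusted p = 0.952 and 0.715), passed with the groups compared alone (0.00693 and 0.0329), and were 1.58 and 1.13 in vehicle minus sham. Bmal1, the clock's activator, differed by -0.09 (-0.44 to 0.26). Against vehicle the EPO livers differed by -0.98 for Dbp (-1.66 to -0.30), -0.68 for Per3 (-1.09 to -0.28) and 0.61 for Bmal1 (0.26 to 0.96), with adjusted p = 0.442, 0.432 and 0.432. Time of collection, which sets these genes, cannot be told apart from the groups. The Cry2 promoter held neither the E-box CACGTG nor the D-box TTANGTAA, which stood in 5.6% and 2.0% of promoters.

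Derl3, which draws misfolded proteins out of the endoplasmic reticulum, read 7.28, 6.89, 6.85, 6.51 and 6.75 in sham and 7.35, 7.95, 8.06, 8.06 and 8.37 in EPO livers. It was 2.15-fold higher with no overlap (1.10, SE 0.22, adjusted p = 0.00803, 10 of 10) and the 1 called gene of 25 in its list. Herpud1, another such gene, lay lower, with 10.18 to 10.68 in sham and 9.21 to 10.11 in EPO livers (-0.70, adjusted p = 0.206). For Derl3, vehicle minus sham was 1.23 and anakinra minus sham 0.95, and EPO minus vehicle was -0.13 (-0.57 to 0.31). Bhlha15, the transcription factor MIST1 of secretory cells, read 7.53 to 8.14 in sham and 6.97 to 7.50 in EPO livers and fell by 0.75 (SE 0.17, adjusted p = 0.0271, 3 of 10). Of 22 heat shock proteins and 43 respiratory chain subunits 0 were called (2 and 3 lower before adjustment), with 2 and 5 above 0 and medians of -0.13 and -0.09. ATF4 targets (27), ribosomal proteins (42), growth hormone and IGF genes (20), glucocorticoid targets (22) and bile acid synthesis genes (15) had 0 called each, and 1, 0, 3, 3 and 2 members at an unadjusted p under 0.05.

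Other genes that rose stood in none of the lists. Wfdc21, a small secreted protein of the whey acidic protein family, read 8.05, 8.06, 7.91, 7.66 and 7.76 in sham and 8.79, 10.15, 9.19, 9.15 and 10.01 in EPO livers (1.57, SE 0.36, adjusted p = 0.0297, 3 of 10). Against vehicle the difference was 0.71 (-0.02 to 1.44). Prg4, the lubricating proteoglycan, rose by 0.94 (adjusted p = 0.0193, 5 of 10) and Isyna1, the enzyme that starts inositol synthesis, by 0.89 (adjusted p = 0.0205, 4 of 10). Dapk1, the death-associated protein kinase, rose by 0.69 (adjusted p = 0.0362, 1 of 10) and Aldh1l2, a mitochondrial folate enzyme, by 0.59 (adjusted p = 0.00658, 10 of 10). Adam23, a surface protein of the ADAM family, rose by 0.50 (SE 0.09, adjusted p = 0.00189, 10 of 10). Smaller rises were seen in Rreb1, a zinc finger transcription factor (0.53), Inhbc, an activin subunit of hepatocytes (0.50), Vegfb, a vascular growth factor (0.48), Zc3h6 (0.48), Flt4, the receptor of lymphatic growth factors (0.41), Atosa (0.41) and Mtss1, a membrane-bending scaffold (0.38), with adjusted p from 0.0205 (Rreb1) to 0.0495 (Atosa). They kept their calls in 7, 2, 1, 2, 1, 3 and 2 of 10.

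Among genes outside the lists that fell, Ddc, the decarboxylase of aromatic amino acids, read 10.50 to 10.87 in sham and 9.99 to 10.34 in EPO livers (-0.63, SE 0.13, adjusted p = 0.0192, 5 of 10). Lhx8, a homeobox factor, fell by 0.67 (adjusted p = 0.0416, 4 of 10), Samd4a, an RNA-binding repressor, by 0.57 (adjusted p = 0.0283, 2 of 10) and Esrrg, the estrogen-related receptor gamma, by 0.56 (adjusted p = 0.0412, 3 of 10). Adamts9, a secreted metalloprotease, read 6.87 to 7.16 in sham and 6.42 to 6.68 in EPO livers and fell by 0.48 (SE 0.09, adjusted p = 0.00599, 10 of 10). Rbp7, a retinol-binding protein, and Odad4, of the dynein docking complex of cilia, fell by 0.46 each (adjusted p = 0.045 for both, 1 and 2 of 10). In all, 26 of the 63 called genes were in none of the 39 lists, and 18 lists had 0 called members.

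Markers of most other cells of the liver were not called. The 23 measured Kupffer cell and macrophage markers had a mean of 8.47 to 8.69 in EPO and 8.50 to 8.80 in sham arrays, with 0 called and 1 higher at an unadjusted p under 0.05. Lymphocyte and NK cell markers (28), endothelial markers (15) and stellate cell and fibroblast markers (19) had 0 called each (1 higher, 2 lower and 1 higher before adjustment), with overlapping means of 6.59 to 6.74 against 6.51 to 6.69, 8.64 to 8.87 against 8.64 to 8.86 and 7.85 to 8.02 against 7.90 to 8.09. The neutrophil list, given above beside Mmp8, was the list of these whose EPO and sham means did not overlap. Its median difference was 0.04, with 6 of 21 members below 0.

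Set beside the other injured livers of 24 h, most of the 63 genes had EPO values that could not be separated from vehicle. The 95% interval of EPO minus vehicle, not adjusted for the number of genes, included 0 for 48 of them and excluded it for 15. Among the 15 were Hamp, Mmp8, Tacr1, Fgf23, Csf2rb, Egr1 and Dmbt1, of which the last 4 passed adjustment. Over all 14506 genes, 1572 had an unadjusted limma p under 0.05 in EPO against vehicle. The 63 genes were chosen with the same EPO arrays. In the same fit 120 genes (0.827%, of which 0.372% higher and 0.455% lower) were called in vehicle against sham and 28 (0.193%) in anakinra against sham. These comparisons share the sham arrays with EPO against sham, so that their lists cannot be set against each other as separate evidence. Between 24 h and 72 h of EPO 278 genes (1.92%) were called, 256 higher and 22 lower, 14 of the 63 among them, and this comparison shares the EPO arrays of 24 h.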

How the data were processed

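Per the submitters' processing notes, the authors ran RMA in oligo (version not stated), which gave the log2 values per probe set that they deposited. Scanner values were not analysed here. Of 29214 probes, 15310 carried 1 gene symbol, 323 several and 13581 none. Each symbol was represented by its probe of highest mean, for 14506 genes, none filtered. limma 3.58.1 in R 4.3.3 (lmFit, eBayes) fitted 1 mean per group over all 50 arrays (10 groups, 40 residual degrees of freedom). P-values are two-sided and Benjamini-Hochberg adjusted over all genes in each comparison, and SE is limma's. Array number limits precision. The fit was tested on simulated data.

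The comparison, genes and lists were chosen with earlier results of these data known. The naming rule took the 15 highest and 15 lowest called genes, up to 5 called members of each list, and 47 fixed genes (45 measured). It gave 49 of the 63 called genes, and the other 14 were added so that each is given, as were list members that missed the threshold, chosen after their values were seen. Of 1189 listed members, 1039 were measured. Alternatives were array weights, eBayes trend and robust options, the compared groups alone, a low-intensity filter, another probe rule, centring, scaling, a replicate block, the spread without the narrow arrays, and leaving out each array.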

Additional observations from a re-analysis of the deposited data

Results flagged for a closer look

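In 14 of 194 groups of 5 arrays tested, 1 array stood apart from the other arrays of its group by a gap over 0.71 of the group's range, and chance gives about 1 in 20. In EPO livers the low arrays were Abcb1a 7.18, Abcc3 7.14, Cish 8.15 and Serping1 12.83, and the high arrays Bhlha15 7.50 and Serpina10 11.78. In sham livers the low arrays were Ahsp 5.53, Cp 12.42, Csf2rb 7.21, Ddc 10.50 and Slco2a1 12.07, and the high arrays Abcc2 12.35, Egr1 9.0 and Isyna1 9.08. Of the 9 of these genes that were called, Cp, Serpina10 and Slco2a1 lost their calls without the array that stood apart (adjusted p = 0.233, 0.184 and 0.0767), and Bhlha15, Csf2rb, Ddc, Egr1, Isyna1 and Serping1 kept them.

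For 14 of the 63 called genes the level in EPO livers at 72 h differed from that at 24 h (limma, adjusted p under 0.05). Higher at 72 h were Rrm2 by 1.81, Mmp8 by 1.40, Cdkn3 by 1.02, Csf2rb by 0.83, Ect2 by 0.74, Stmn1 by 0.53, Ccnb2 by 0.52, Tacr1 by 0.51 and Ccnb1 by 0.50. Lower were Hamp (-2.79), Derl3 (-1.02), Isyna1 (-0.87), Aldh1l2 (-0.51) and Atosa (-0.42). These differences share the EPO arrays of 24 h with the comparison against sham.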

How the results depend on the processing

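EPO against sham called 63 genes, and 404 with array weights (222 higher, 182 lower), 163 with the groups compared alone, 97 with the spread taken without the narrow arrays, 37 with arrays centred and scaled (51.4% higher against 65.1%) and 18 to 50 with 1 array left out. EPO against vehicle called 4, and 23 with array weights, 0 with the groups compared alone (limma) and 0 to 5 with 1 array left out. EPO against anakinra called 3, and 12, 7 and 0 to 4. EPO at 72 h against 24 h called 278, and 547, 155 and 189 to 393. Vehicle against sham called 120, and 267, 48 and 56 to 151, and anakinra against sham 28, and 280 with array weights, 45 without the narrow arrays and 0 to 36. Acute phase members numbered 10, and 24 with array weights, 3 centred and scaled and 2 to 9 with 1 array left out. S phase and mitosis members numbered 5, and 13 with array weights, 3 with the low-intensity filter, 8 without the narrow arrays and 1 to 6 with 1 array left out. The cause of these moves was not tested. For the comparisons with vehicle at 24 h, the spread without the narrow arrays was not run, since vehicle array 3 is 1 of them. None of the 63 called genes changed direction in any of these fits. Among the named genes that were not called, the difference crossed 0 with 1 array left out for Socs2 (-0.21 to 0.07), Cyp2b1 (-0.05 to 0.27), Cyp7a1 (-0.41 to 0.03), Nr1i3 (-0.27 to 0.02), Cyp3a2 (-0.01 to 0.06), Abcc3 (-0.04 to 0.04), Slc10a1 (-0.02 to 0.02) and Cyp2e1 (from 0.00 to 0.07, the lowest just under 0). Over the named genes, fits with 1 array left out kept the side of the threshold in 656 cases and lost the call in 314, and the other alternatives gave 807 same, 47 lost and 13 gained. With the replicate block EPO against sham called 64 (43 higher, 21 lower), 62 of the 63 among them. In their deviations from the group means, arrays of the same number correlated by -0.11 to 0.08 and others by -0.15 to 0.17. Of the EPO arrays, 0 of 5 correlated best with their own number. Whether arrays of the same number shared a day or batch was not tested.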
